A study of Mus musculus with 17 samples.

Results

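The sites described here are 698 regions of accessible chromatin in mouse macrophages that were within the best 24389 peaks of nearly every list before lipopolysaccharide (LPS) and of almost none at either LPS time. The assay was ATAC-seq, which uses a transposase, Tn5, to cut and tag DNA where chromatin is open. Each of 17 peak lists was reduced to its 24389 best peaks by p-value, the number in the shortest list. Peaks were merged over lists into 34141 consensus sites seen in 2 or more lists. A member had such a matched peak in at least 5 of the 6 lists at 0 h, in at most 1 of the 5 lists at 1 h and in at most 1 of the 6 lists at 18 h. The rule took 2.04% of all consensus sites and 3.34% of the 20899 sites present in at least 5 of 6 lists at 0 h. The members were chosen on these lists, so the presence of their peaks by time is a description and carries no test.

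The cells were bone marrow-derived macrophages of male mice aged 6 to 12 weeks, cultured for 7 days in medium conditioned by L929 cells. They came from wild-type littermates (BMDM-WT, 8 lists) or from mice with a whole-body deletion of Nur77, the nuclear receptor encoded by Nr4a1 (BMDM-Nur77-KO, 9 lists, genotype labelled cre). The deletion was made with a CMV-Cre transgene, brought in by C57Bl6/J mice, that was later bred out. Cells were left untreated (0 h) or received 100 ng/ml LPS for 1 h or 18 h, with 3 lists in each group except BMDM-WT at 1 h, which had 2, named replicate 1-2 and replicate 3. The labels do not say whether lists of a group came from separate mice, so p-values measure only the spread between lists.

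Macrophages owe much of their enhancer repertoire to PU.1, a lineage factor that opens chromatin together with partners such as IRF8, C/EBP and RUNX proteins. MEF2C is a further transcription factor of the myeloid lineage. LPS signals through TLR4 and activates NF-kB and AP-1, the latter a dimer of FOS and JUN proteins. These factors open new enhancers, while part of the resting enhancer set loses accessibility. Nur77 is known to bind the NBRE motif as a monomer and to restrain inflammatory gene expression.

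Sequences around the summits, from the RefSeq copy of GRCm38 (the mm10 build of the lists), plus strand, are given for 10 members to show which motif letters they carry and which they lack. Each runs 100 bases to either side of the summit. Capitals mark matches to MEF2, the PU.1-IRF composite element, PU.1, AP-1, C/EBP or RUNX. The Hs3st1 site (chr5:39630856-39631056, intron of Hs3st1) held a MEF2 match and, further along, a PU.1-IRF match. The Kcnj16 (chr11:110993635-110993835, intron of Kcnj16), Fli1 (chr9:32562545-32562745, intergenic) and Bhlhe40 (chr6:108571263-108571463, intergenic) sites held a PU.1 match.
Hs3st1: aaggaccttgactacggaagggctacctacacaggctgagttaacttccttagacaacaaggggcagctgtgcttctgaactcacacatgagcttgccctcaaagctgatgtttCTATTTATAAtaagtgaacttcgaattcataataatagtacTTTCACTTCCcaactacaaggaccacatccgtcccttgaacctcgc
Kcnj16: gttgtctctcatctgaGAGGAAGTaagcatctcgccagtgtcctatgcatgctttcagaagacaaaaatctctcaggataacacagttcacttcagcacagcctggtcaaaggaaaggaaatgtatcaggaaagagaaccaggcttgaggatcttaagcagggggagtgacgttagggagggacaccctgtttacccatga
Fli1: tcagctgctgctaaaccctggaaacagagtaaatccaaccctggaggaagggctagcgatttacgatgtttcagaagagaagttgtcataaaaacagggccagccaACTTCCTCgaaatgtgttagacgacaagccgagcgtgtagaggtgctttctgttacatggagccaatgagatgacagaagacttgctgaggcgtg
Bhlhe40: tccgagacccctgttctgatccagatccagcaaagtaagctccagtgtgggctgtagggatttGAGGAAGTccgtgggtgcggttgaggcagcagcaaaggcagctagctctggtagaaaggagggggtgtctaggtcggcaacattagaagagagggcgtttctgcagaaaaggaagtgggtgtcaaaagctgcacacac
The Mrc1 (chr2:14231523-14231723, intron of Mrc1) and Mitf (chr6:97855786-97855986, intron of Mitf) sites are among the 51 members with an AP-1 match.
Mrc1: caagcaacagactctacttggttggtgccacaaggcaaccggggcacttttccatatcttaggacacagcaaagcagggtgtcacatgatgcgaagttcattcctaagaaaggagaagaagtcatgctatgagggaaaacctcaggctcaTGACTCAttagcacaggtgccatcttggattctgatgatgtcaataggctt
Mitf: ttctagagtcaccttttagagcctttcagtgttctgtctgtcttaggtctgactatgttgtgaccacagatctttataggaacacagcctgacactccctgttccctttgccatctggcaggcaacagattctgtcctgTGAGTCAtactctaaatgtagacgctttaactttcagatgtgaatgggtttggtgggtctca
The Mef2c site (chr13:83572094-83572294, intron of Mef2c) held a C/EBP match and the Cd36 site (chr5:17835756-17835956, intron of Cd36) a RUNX match.
Mef2c: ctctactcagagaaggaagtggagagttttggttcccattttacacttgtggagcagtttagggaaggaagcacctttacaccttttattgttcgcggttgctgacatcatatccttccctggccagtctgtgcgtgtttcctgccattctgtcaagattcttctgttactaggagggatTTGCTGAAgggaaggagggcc
Cd36: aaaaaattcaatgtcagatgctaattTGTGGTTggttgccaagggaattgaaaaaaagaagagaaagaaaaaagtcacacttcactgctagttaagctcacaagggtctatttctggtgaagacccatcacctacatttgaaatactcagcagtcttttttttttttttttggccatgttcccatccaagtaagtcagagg
The Cebpa (chr7:35098875-35099075, intergenic) and Selenop (chr15:3281879-3282079, intron of Ccdc152) sites matched none of these motifs.
Cebpa: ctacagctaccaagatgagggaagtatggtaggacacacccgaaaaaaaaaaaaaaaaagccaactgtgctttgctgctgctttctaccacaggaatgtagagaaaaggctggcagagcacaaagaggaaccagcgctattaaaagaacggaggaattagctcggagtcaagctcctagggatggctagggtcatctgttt
Selenop: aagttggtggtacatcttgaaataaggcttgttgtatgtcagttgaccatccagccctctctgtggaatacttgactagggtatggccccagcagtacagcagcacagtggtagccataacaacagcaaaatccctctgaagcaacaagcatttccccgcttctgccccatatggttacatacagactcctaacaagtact

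Depth differed between lists. A background level recovered from the fold column gave 0.382 to 9.75 background reads per kb, and the peak at the last matched rank rested on 3 to 69 reads. By this measure the 3 BMDM-WT lists at 0 h and the 3 at 18 h were deep (5.11 to 9.75 and 4.62 to 8.38), whereas the BMDM-Nur77-KO lists at 18 h reached 1.10 to 1.76. Background reads do not measure signal at peaks. Median summit reads at the sites matched in all 17 lists were 185, 149 and 290 in BMDM-WT at 0 h and 164, 97 and 71 at 18 h. Of 12 macrophage marker genes, 9 had a deposited promoter peak in every list and none was without one in all lists. Of 7 T cell markers 5 had none in any list, as had 3 of 6 B cell, 4 of 7 stromal, 2 of 9 neutrophil and progenitor and 3 of 7 erythroid and megakaryocyte markers. Other markers of these types did have promoter peaks, among them Cd3d in 17 of 17 lists, S100a8 in 16, Camp, Col1a1 and Klf1 in 14 each, and Pf4 and Pdgfra in 11 each. No member had Nr4a1 as its nearest gene. The Nr4a1 promoter itself carried a deposited peak in 8 of 8 BMDM-WT and 6 of 9 BMDM-Nur77-KO lists, and the gene body in 8 of 8 and 8 of 9, which does not check the deletion.

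By construction, the members' matched peaks were common at 0 h and rare under LPS. At 0 h a matched peak was present at 94.8%, 95.6% and 98.0% of members in the BMDM-WT lists and at 96.6%, 88.0% and 77.5% in the BMDM-Nur77-KO lists. At 1 h the shares were 9.46% and 5.59% in BMDM-WT and 6.30%, 8.60% and 7.88% in BMDM-Nur77-KO. At 18 h they were 8.31%, 3.58% and 4.73% in BMDM-WT and 7.59%, 8.02% and 3.72% in BMDM-Nur77-KO. All LPS lists lay below all 0 h lists, a gap that the rule itself fixes.

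Of the members, 352 had a peak in all 6 lists at 0 h and 346 in 5 of 6. The list missing among those 346 was most often BMDM-Nur77-KO replicate 3 (157 members), the shallowest at 0 h, and least often BMDM-WT replicate 3 (14 members), the deepest. In the LPS lists 281 members had no matched peak at all, 166 had 1 at 1 h only, 153 had 1 at 18 h only and 98 had 1 at each time. Full presence at 0 h with full absence under LPS held for 142 members. At the edges of the rule, 50 members stood at all 3 limits. Just outside, 435 sites met the LPS limits with a peak in 4 of 6 lists at 0 h, 227 failed by 1 list at 1 h and 197 by 1 list at 18 h.

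The members were weak peaks within the reduced lists even before LPS. Their mean rank over the 6 lists at 0 h (1 is the best, a missing peak takes the last rank) had a median of 19916, against 10496 for the other 20201 sites present in at least 5 of 6 lists at 0 h. The lowest mean rank of a member was 6853. A second comparison set was therefore formed from other basal sites of like rank, 5435 sites with a mean rank between 15403 and 22105, the 10th and 90th percentiles of the members. Its median mean rank was 18480, so the members were still somewhat weaker than this set.

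**Figure D1:**
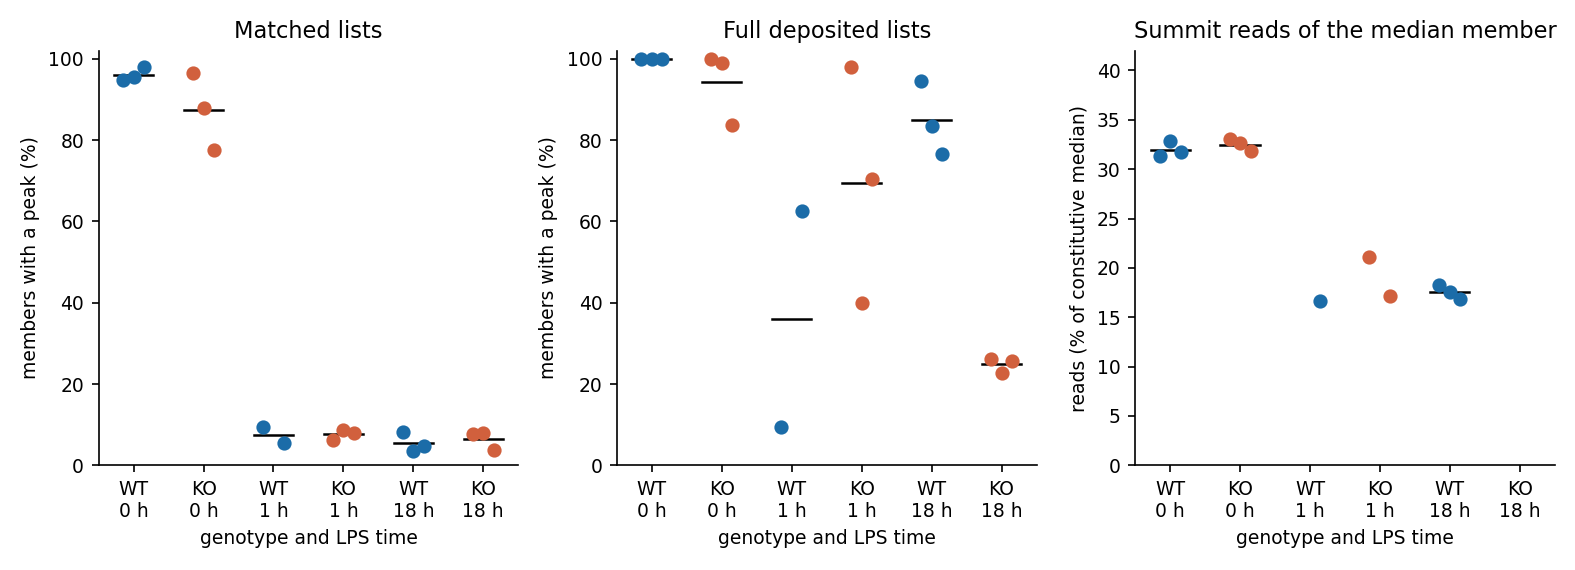
Share of the 698 members with a peak in each matched list (left), in each full deposited list (middle), and summit reads of the median member as a percent of the median constitutive site (right). Points are lists (blue WT, orange KO) and bars are group means where every list has a value. Matched shares stay below 10% under LPS in all groups, while 94.6% of members still have a deposited peak in WT 18 h replicate 1.

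The name "lost" holds for the ranking and only in part for the peaks themselves. When every deposited peak was considered, whatever its rank, 94.6%, 83.5% and 76.5% of members had a peak in the BMDM-WT lists at 18 h, and 485 had one in all 3. At 1 h the shares were 98.0% and 70.5% in BMDM-Nur77-KO replicates 1 and 3, with 279 of 698 members in replicate 2, and 9.46% and 62.6% in BMDM-WT. At 18 h in BMDM-Nur77-KO they were 26.2%, 22.8% and 25.6%. Within each LPS group at 1 h the deeper list had the higher share. The BMDM-WT replicate 1-2 list ended at the matched rank, so it could hold no weaker peak. Over the 11 LPS lists, 155 members had a deposited peak in 8 or more, 478 in 4 to 7, 63 in 1 to 3 and 2 in none.

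Those peaks lay far down the lists. The median rank of members with a deposited peak was 31162, 31796 and 31736 in BMDM-WT at 18 h and 33076 in the deepest list at 1 h (BMDM-Nur77-KO replicate 1), against 19429 to 19936 in BMDM-WT at 0 h. Summit reads were recovered from the fold column and expressed as a percent of the median reads at the 10404 sites matched in all 17 lists, here called constitutive. The median member stood at 31.4%, 32.9% and 31.7% in BMDM-WT at 0 h and at 33.0%, 32.6% and 31.8% in BMDM-Nur77-KO at 0 h. It stood at 18.3%, 17.5% and 16.9% in BMDM-WT at 18 h, at 16.7% in BMDM-WT at 1 h (replicate 3), and at 21.1% and 17.1% in BMDM-Nur77-KO at 1 h (replicates 1 and 3). The remaining LPS lists had a peak at fewer members than are needed to place the median. Sites of like rank stood at 35.1% to 35.6% in BMDM-WT at 0 h and at 33.8% to 35.1% at 18 h.

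Site by site, the mean relative reads in BMDM-WT at 18 h divided by those at 0 h had a median of 0.595 over the 485 members with a deposited peak in all 6 of these lists. The ratio was below 1 in 483 of them (99.6%). Among 5117 sites of like rank with a peak in the same lists the median was 0.999, and 50.1% were below 1. Members without a peak in some of these lists have no ratio, and all had been chosen for absence from the best peaks at 18 h. The median is therefore a description of the members that kept a peak, and neither a test nor the size of the drop over all members.

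The strongest members at 0 h lay near genes of varied function. Sites are named for the protein-coding gene whose transcription start site (TSS) lay nearest, which says nothing of its expression. Reads are not scaled for depth, so they cannot be compared directly between lists. Beside the values given above for BMDM-WT at 0 h and 18 h, the median constitutive site held 11 and 42 reads in BMDM-WT at 1 h. In BMDM-Nur77-KO it held 224, 46 and 22 at 0 h, 109, 17 and 35 at 1 h, and 17, 20 and 27 at 18 h. The best ranked was an intronic site 3752 bp upstream of a TSS of Kcnj16, a potassium channel subunit. Its summit held 153, 130 and 239 reads in BMDM-WT at 0 h. At 1 h it held 5 reads in BMDM-WT replicate 3 and had no peak in replicate 1-2. At 18 h it held 27 reads in BMDM-WT replicate 1, and replicates 2 and 3 had no peak. In BMDM-Nur77-KO it held 198, 44 and 19 reads at 0 h, 21 and 9 in replicates 1 and 3 at 1 h, and no peak at 18 h. Every list at 0 h thus had a peak at rank 5852 to 7502, and the peaks under LPS started at rank 26992.

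The site of second rank was at Mef2c, 154 bp upstream of a TSS. It held 179, 137 and 283 reads in BMDM-WT at 0 h, 10 in replicate 3 at 1 h with no peak in replicate 1-2, then 38 and 14 reads in replicates 1 and 2 at 18 h with no peak in replicate 3. In BMDM-Nur77-KO it held 180, 46 and 13 reads at 0 h, 32, 6 and 7 at 1 h, and 6 in replicate 3 at 18 h. Its only matched peak under LPS was in BMDM-Nur77-KO at 1 h (replicate 2, rank 21989). A site 20318 bp upstream of Cebpa, which encodes the C/EBP alpha factor of myeloid differentiation, held 156, 109 and 214 reads in BMDM-WT at 0 h, had no peak at 1 h and held 30, 25 and 13 at 18 h. In BMDM-Nur77-KO it held 175, 36 and 17 reads at 0 h, 21 and 4 in replicates 1 and 2 at 1 h, and 9 in replicate 3 at 18 h, its only matched peak under LPS (rank 22705). Relative to constitutive sites the BMDM-WT level at 18 h was 0.270 of the level at 0 h.

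The largest relative drop among the named members with peaks in all 6 of those lists was at Hs3st1, which encodes a heparan sulfate sulfotransferase. Its summit held 113 and 104 reads in BMDM-WT replicates 1 and 2 at 0 h, and more in replicate 3. At 1 h replicate 3 held 9 reads and replicate 1-2 had no peak. At 18 h it held 19, 8 and 8 reads, a ratio of 0.155. In BMDM-Nur77-KO it held 158, 38 and 12 reads at 0 h, 30 and 6 in replicates 1 and 3 at 1 h, and 5 in replicate 3 at 18 h. The other sites among the 12 best ranked were nearest to Pex5, Dnaic1, C1qtnf1, Selenon, Sesn1, Klf4, Timm8a2 and Map3k1, at distances of 15848 to 209079 bp. Ratios among these, where given, ran from 0.199 (Pex5) to 0.354 (Timm8a2). Pex5 encodes the import receptor of peroxisomes and Klf4 a Krüppel-like factor of monocyte differentiation.

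A single member with a peak in all 6 lists at 0 h had no deposited peak in any of the 11 LPS lists. It lay in an intron of Ccdc152, 9894 bp downstream of a TSS of Selenop, the gene of the secreted selenium carrier selenoprotein P. Its summit held 68, 49 and 117 reads in BMDM-WT and 84, 16 and 8 in BMDM-Nur77-KO at 0 h. The weakest deposited peaks of the BMDM-WT lists at 18 h held 10, 8 and 7 reads. Absence there means fewer reads than the calling threshold, not none.

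**Figure D2:**
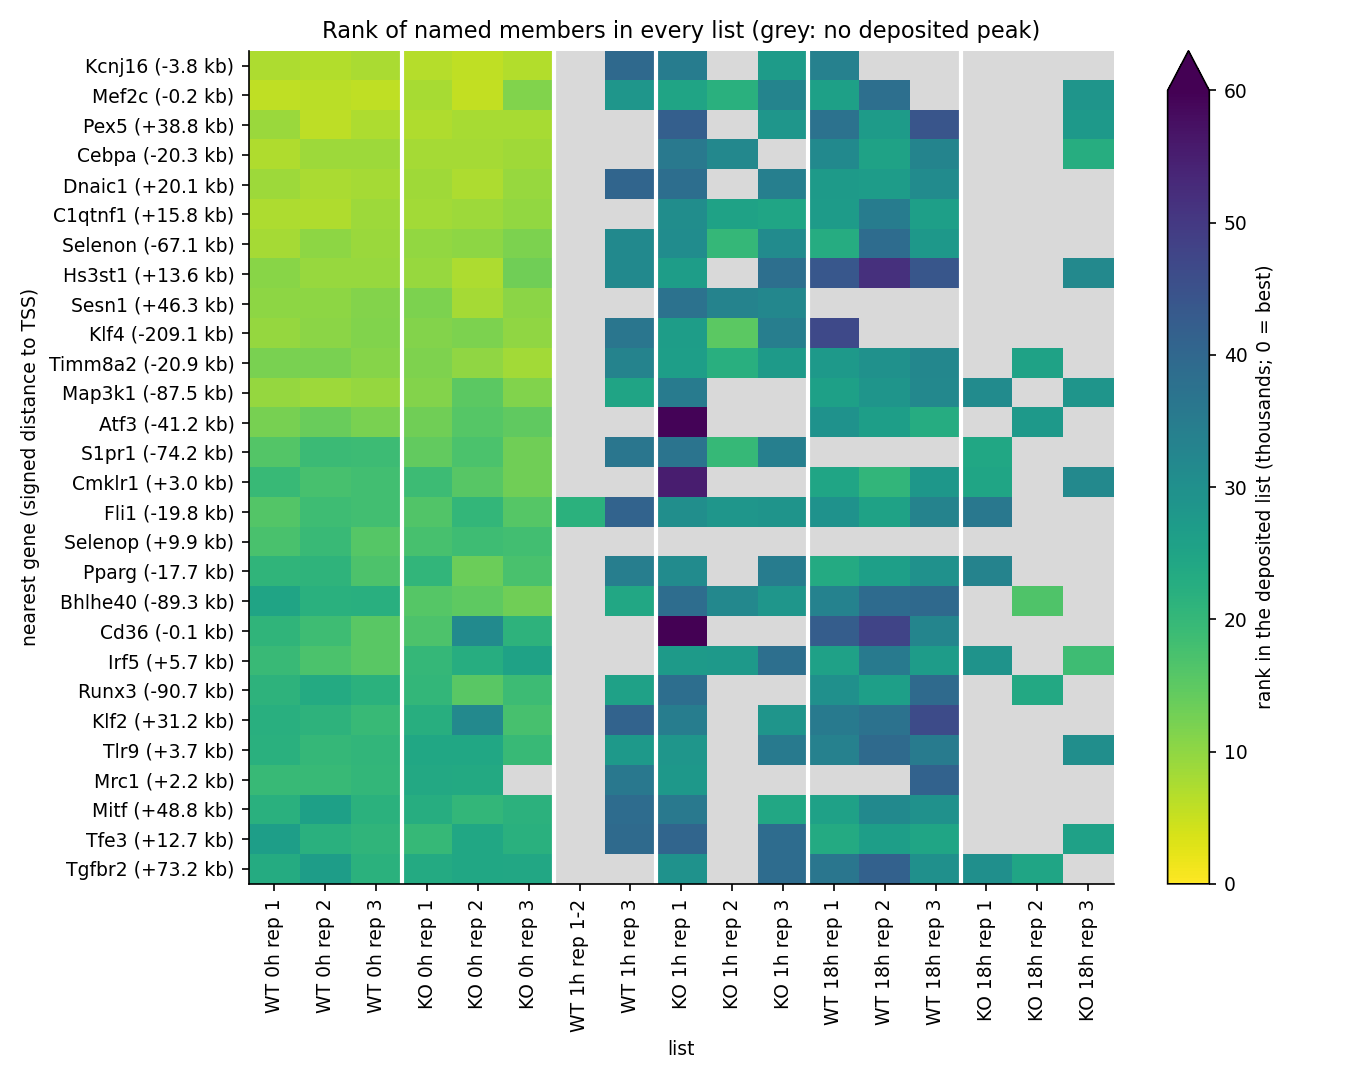
Rank in the full deposited list (colour, scale in kilo-ranks, 0 is best) of the 28 members named by rank, by absence or by gene list, in each of the 17 lists. Rows are members with their nearest gene and columns are lists grouped by genotype and time. Yellow to light green at 0 h mostly gives way to blue or grey (no deposited peak) under LPS, with exceptions in single lists such as Klf4 in KO 1 h replicate 2 (rank 15195), and the Selenop row is grey in all 11 LPS lists.

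Of 50 macrophage transcription factor genes, 47 were nearest to a site present in at least 5 of 6 lists at 0 h within 100 kb, and 11 of those 47 (23.4%) were nearest to a member. Over all genes with such a site it was 584 of 11328 (5.16%). Genes with many sites have more chances. By sites, 11 of the 211 around these factors were members (5.21%), beside 3.16% over all genes. The 11 genes were Mef2c, Cebpa, Atf3, Fli1, Pparg, Bhlhe40, Irf5, Runx3, Klf2, Mitf and Tfe3. PPARG controls lipid genes, MITF and TFE3 lysosomal genes, and IRF5 inflammatory genes in macrophages. ATF3 is an LPS-induced AP-1 family member. Its site 41212 bp upstream held 99, 72 and 157 reads in BMDM-WT at 0 h and 32, 23 and 20 at 18 h, a ratio of 0.458.

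Not every site near these genes fell as far. The Fli1 site, 19784 bp upstream of that ETS factor gene, held 75, 52 and 100 reads in BMDM-WT at 0 h and 33, 25 and 13 at 18 h, a ratio of 0.584. The Pparg site held 55, 45 and 111 reads at 0 h and 44, 24 and 15 at 18 h, a ratio of 0.740. At Tfe3 the reads were 41, 43 and 85 at 0 h and 44, 24 and 19 at 18 h, and the ratio of 0.975 leaves almost no drop at 18 h in BMDM-WT. These 3 sites met the same rule of presence.

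Among 73 surface receptors of resting macrophages, 6 of the 67 with a basal site had a member, and 6 of 178 sites were members (3.37%), close to the 3.16% over all genes. They were S1pr1, Cmklr1, Cd36, Tlr9, Mrc1 and Tgfbr2. S1PR1 and CMKLR1 bind a lipid and chemerin, CD36 is a scavenger receptor, MRC1 the mannose receptor and TLR9 a sensor of unmethylated DNA. The Cd36 site held 55, 52 and 122 reads in BMDM-WT at 0 h and 20, 10 and 13 at 18 h, a ratio of 0.383. At the Cmklr1 site the reads were 59, 56 and 100, then 41, 32 and 16, a ratio of 0.775. The S1pr1 site held 75, 50 and 95 reads at 0 h and had no deposited peak in BMDM-WT at 18 h, though BMDM-Nur77-KO replicate 1 kept 7 reads there at that time. At 18 h the Mrc1 site had a deposited peak in BMDM-WT replicate 3 alone, of 9 reads.

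The other gene lists lay on both sides of the share over all genes, which was 3.16% of sites and 5.16% of genes. G-protein and small GTPase signalling had members near 8 of 45 genes with a basal site (8 of 180 sites, 4.44%), among them Pde4d and Pde2a, which degrade cyclic nucleotides, and Rasgrp3, a Ras activator. The TGF-beta, Wnt and Notch list had 5 of 32 genes (5 of 103 sites, 4.85%), lysosome and phagocytosis 4 of 45 (4 of 135 sites, 2.96%) and cholesterol and fatty acid metabolism 2 of 31 (2 of 86 sites, 2.33%), which were Abca1 and Plin2. Cell cycle and DNA replication had 1 of 34 (Ccnd3, 1 of 65 sites, 1.54%). The NF-kB and inflammatory list had 1 of 50 (Cd40, 1 of 114 sites, 0.877%) and the interferon response list 0 of 25 (0 of 35 sites). No macrophage marker gene (0 of 11) was nearest to a member. Markers of other cell types gave Cd79b (1 of 1 B cell marker sites), Cd34 (1 of 8 neutrophil and progenitor sites) and Pf4 (1 of 3 erythroid and megakaryocyte sites), and 0 of 2 sites for T cell and for stromal markers. The part of other cells in the results was not tested. These counts are descriptions.

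The members were spread over 642 nearest genes. Of these, 47 had 2 members and 4 had 3 or more. Rnf144b, a ubiquitin ligase gene, had 4, of which 1 lay 100 bp from a TSS. That promoter site held 59, 45 and 91 reads in BMDM-WT at 0 h and 20, 13 and 10 at 18 h, a ratio of 0.425. The other sites of this gene had ratios of 0.447 and 0.615, and the remaining site had no peak in BMDM-WT replicate 3 at 18 h. Nrp1, a semaphorin co-receptor gene, had 3 members 210551 to 299317 bp upstream. Mbnl1, a splicing regulator gene, and Rhobtb1 had 3 each, with ratios up to 0.841 at Mbnl1 and 0.749 at Rhobtb1. Neighbouring members within 50 kb of each other formed 51 pairs.

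Like-rank sites near a member had somewhat fewer matched peaks under LPS. The 218 that lay within 25 kb of a member had a peak in 92.7% of the 0 h lists on average, 55.0% at 1 h and 60.9% at 18 h. The 4735 over 100 kb away had 93.3%, 63.1% and 66.7%. The 482 in between had 94.1%, 59.8% and 62.6%. Sites of one locus share lists, and this difference was not tested.

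Most members were distal. A summit within 1 kb of a TSS was found for 82 of 698 members (11.7%, 95% Wilson interval 9.57 to 14.3), against 20.5% (19.4 to 21.6) of sites of like rank, 13.9% (11.6 to 16.7) of the 710 sites lost at 1 h and regained at 18 h, and 15.7% (13.1 to 18.6) of the 658 sites lost only at 18 h. Over all consensus sites it was 30.2%. The members' share depended on the choice of peaks, at 34.6% of the 272 members obtained from the best 10000 peaks of each list and 4.93% of the 142 with full presence and full absence. The median distance to a TSS was 16330 bp for members and 11348 bp for sites of like rank. Introns held 318 summits (45.6%), intergenic sequence 251 (36.0%), UTRs 48, coding exons 19, other exons of coding genes 16 and other genes 46. Intervals cover counting error over sites, and sites are not replicates of a condition.

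The sequence around the summits was not used by the rule. A motif was counted where its letters occurred on either strand no more than 100 bp from a summit. Members carried the AT-rich MEF2 element in 40 of 698 cases (5.73%, interval 4.24 to 7.71), against 1.31% (1.04 to 1.64) of sites of like rank and 1.38% of all consensus sites. The share was 1.69% (0.969 to 2.93) at sites regained late and 3.04% (1.98 to 4.65) at sites lost only late. The PU.1-IRF composite element was present in 32 members (4.58%, 3.27 to 6.40), against 1.58% (1.28 to 1.95) at sites of like rank, 1.97% (1.18 to 3.28) at sites regained late, 1.82% (1.05 to 3.16) at sites lost only late and 1.41% of all sites. The intervals of members did not overlap those of like-rank sites for either element, but overlapped that of sites lost only late for MEF2 and, barely, that of sites regained late for the composite. Among members obtained from the best 10000 peaks the MEF2 share was 3.68%, and with all deposited peaks the composite share was 2.25%.

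PU.1 letters (GAGGAAGT) were in 84 members (12.0%, 9.83 to 14.7), beside 8.41% (7.70 to 9.18) of sites of like rank and 7.71% of all sites. The share was close to that of members at sites regained late, 11.5% (9.40 to 14.1), and was 8.97% (7.02 to 11.4) at sites lost only late. RUNX letters (TGTGGTT) were in 74 (10.6%, 8.53 to 13.1), beside 7.29% (6.62 to 8.01) and 6.48%. Sites lost only late had about the members' share, 10.3% (8.23 to 12.9), and sites regained late had 7.75% (6.00 to 9.95). MEF2 shared a site with PU.1 in 3 members and with the composite element in 1, the Hs3st1 site. PU.1 and the composite letters, which can overlap, occurred together in 6. At least 1 of these 3 elements was in 146 members.

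AP-1, NF-kB and KLF motifs were less frequent at members than at sites of like rank. AP-1 letters (TGACTCA) were in 51 members (7.31%, 5.60 to 9.48), against 17.8% (16.8 to 18.8) of sites of like rank and 16.2% of all sites. Sites lost only late held them in 26.3% (23.1 to 29.8) and sites regained late in 9.01% (7.12 to 11.3). Where a peak had to cover at least 0.5 of a site, the AP-1 share of the members was 13.0%. The NF-kB element was in 9 members (1.29%, 0.680 to 2.43), against 3.90% (3.42 to 4.45) and 4.82%, and sites regained late had a similarly low share of 1.13% (0.572 to 2.21). KLF letters (GGGTGTGG), bound by Krüppel-like factors, were in 5 members (0.716%, 0.306 to 1.67) and in 2.43% (2.05 to 2.87) of sites of like rank. They were in 1.83% (1.07 to 3.11) of sites regained late, an interval that overlaps that of members, and in 5.17% (3.72 to 7.13) of sites lost only late.

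C/EBP and nuclear receptor motifs had more similar shares over all windows. C/EBP letters (TTGCNNAA or TTACNNAA) were in 15.8% of members (13.2 to 18.6), beside 17.7% (16.7 to 18.8) of sites of like rank, 23.7% (20.7 to 26.9) of sites regained late and 16.9% of all sites. The NBRE (AAAGGTCA), which contains the nuclear receptor half-site (AGGTCA), was in 1.29% of members (0.680 to 2.43), 1.18% of like-rank sites and 1.04% of all sites. The half-site was in 13.3%, 13.6% and 13.1%. The intervals of members and like-rank sites overlapped for all 3 motifs over all windows.

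**Figure D3:**
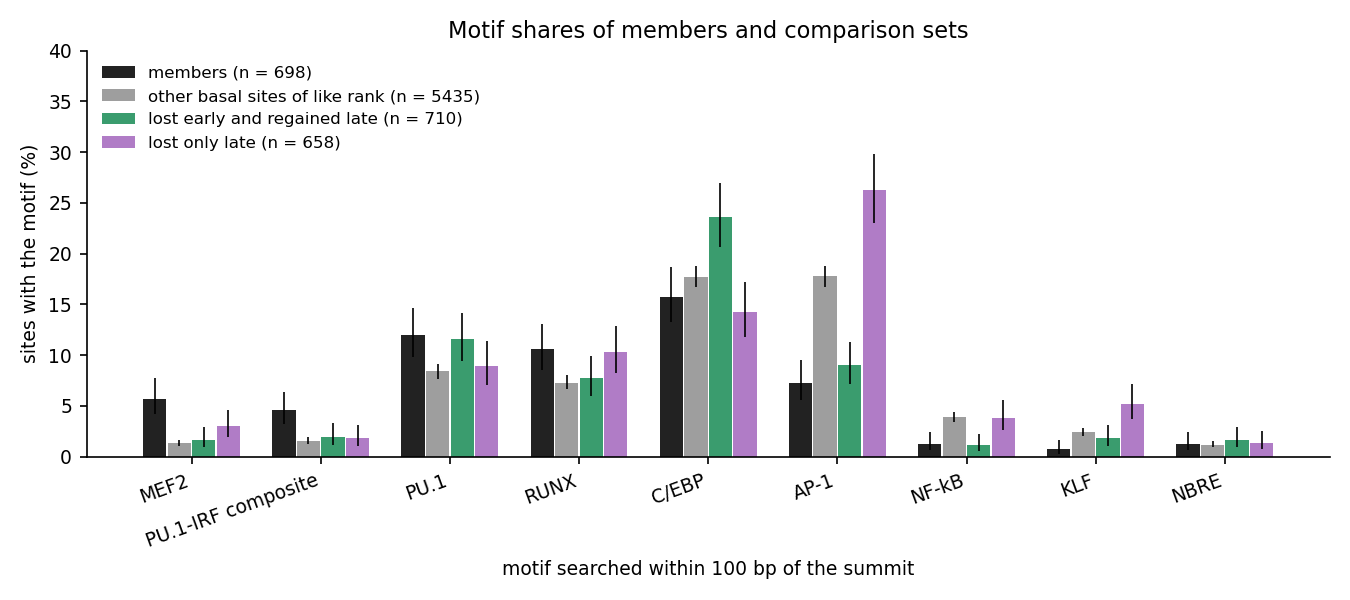
Percent of sites with each motif within 100 bp of the summit, for members and 3 comparison sets, with 95% Wilson intervals. Members stand highest for MEF2 (5.73%), the PU.1-IRF composite (4.58%), PU.1 (12.0%) and RUNX (10.6%), and lowest for AP-1 (7.31%) and KLF (0.716%). Their interval overlaps that of sites lost only late for MEF2 and that of sites regained late for the composite, AP-1 and KLF. For PU.1 and RUNX it overlaps those of both these sets.

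The shares were also compared away from promoters and within ranges of base composition. Among the 616 members over 1 kb from a TSS the MEF2 share was 6.17% (like rank 1.60%), the composite share 5.03% (1.76%) and the AP-1 share 7.79% (21.2%). Member windows had a median GC content of 50.2% and like-rank windows 51.2%. Among windows under 50% GC, MEF2 was in 34 of 337 members (10.1%, 7.31 to 13.8) and in 2.37% (1.83 to 3.06) of sites of like rank. At or above 50% GC it was in 6 of 361 members (1.66%, 0.764 to 3.58) and in 0.488% (0.296 to 0.804), where the intervals overlapped. AP-1 was in 10.4% (7.56 to 14.1) of members and 23.4% (21.7 to 25.1) of like-rank sites under 50% GC, and in 4.43% (2.75 to 7.08) and 13.4% (12.3 to 14.7) at or above it. C/EBP was in 18.4% (14.6 to 22.9) of members and 25.9% (24.2 to 27.7) of like-rank sites under 50% GC, where the intervals did not overlap, and in 13.3% (10.2 to 17.2) and 11.5% (10.4 to 12.6) at or above it.

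Distance from the summit was then compared. In the 50 bp before and the 50 bp after it, 2.15% and 1.72% of members held a MEF2 centre, against 0.423% and 0.276% of sites of like rank. In the bins between 150 and 500 bp from the summit on either side the shares ran from 0.143% to 1.15% of members and from 0.258% to 0.497% of like-rank sites, and 1.43% of members held a centre between 100 and 150 bp before it. The member bins hold few sites each, 15 at most. For AP-1 both sets peaked there, at 2.29% of members and 6.97% of like-rank sites in the 50 bp before the summit.

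**Figure D4:**
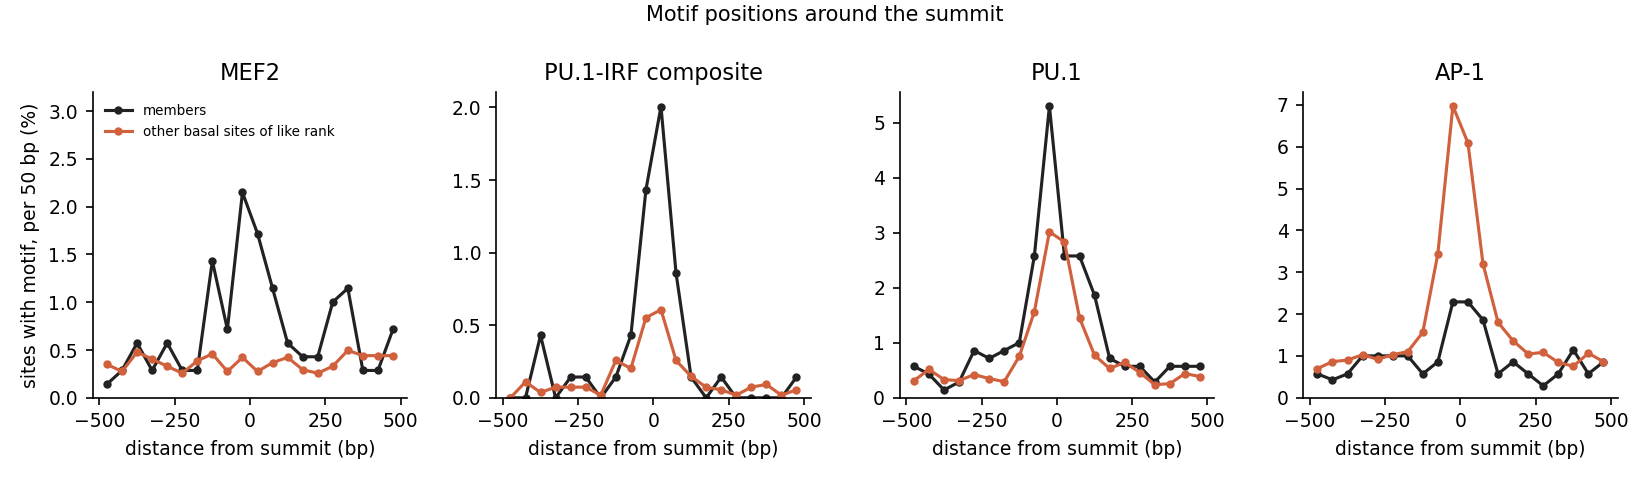
Percent of sites with a motif centre in each 50 bp bin up to 500 bp from the summit, for members (black) and other basal sites of like rank (orange), with a separate vertical scale per motif. The highest MEF2 bin of members is next to the summit (2.15%), and the AP-1 peak of members is lower than that of like-rank sites.

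To measure the drop in lists that had not chosen the sites, each genotype was used to choose sites that were measured in the other. In BMDM-WT 1132 sites (3.32% of all consensus sites) had a matched peak in all 3 lists at 0 h, none at 1 h and at most 1 at 18 h, and 522 of them were members. In the BMDM-Nur77-KO lists these sites had a matched peak in 85.6%, 67.7% and 57.0% at 0 h, in 22.1%, 19.2% and 21.5% at 1 h and in 19.1%, 14.6% and 13.2% at 18 h. All 6 LPS lists lay below all 3 lists at 0 h. The mean fell from 70.1% ± 14.5 (SD, n = 3) to 18.3% ± 3.63 (n = 6), and the two-sided exact permutation test gave p = 0.0119, the smallest its 84 arrangements allow. The 5321 sites of like rank in BMDM-WT at 0 h that were not chosen had 81.2% ± 13.1 at 0 h and 59.7% ± 6.22 under LPS, with the highest LPS list (69.0%) just above the lowest at 0 h (68.3%). Sites of like rank thus fell as well, and the p-value by itself does not set the chosen sites apart from them. The difference between these drops was not tested.

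In the reverse direction 1183 sites (3.47% of all consensus sites) were chosen in BMDM-Nur77-KO, with a matched peak in all 3 lists at 0 h and in at most 1 at each LPS time, and 433 were members. In BMDM-WT they had a matched peak in 86.4%, 85.4% and 91.1% at 0 h, in 22.9% and 22.2% at 1 h and in 41.4%, 35.3% and 35.7% at 18 h. The mean fell from 87.6% ± 3.07 (SD, n = 3) to 31.5% ± 8.52 (n = 5), with a two-sided exact permutation p = 0.0179, the smallest for 56 arrangements. The 4434 like-rank sites not chosen had 95.9% ± 1.03 and 75.8% ± 8.56, and there too every LPS list (61.4% to 83.2%) lay below every list at 0 h. The p-value therefore does not set the chosen sites apart from sites of like rank, and here too the difference between the drops was not tested. With each LPS time taken alone the exact permutation test gave p = 0.1 in both genotypes, the smallest value 3 lists against 3, or 3 against 2, allow. Keeping the replicate numbers together left p = 0.037 for the first test and p = 0.0833 for the second in exact permutation, the latter the smallest its arrangements permit. With all deposited peaks used, neither difference passed the exact permutation test (p = 0.298 and p = 0.0536), nor did they where a peak had to cover at least 0.5 of a site (p = 0.0833 and p = 0.0714).

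**Figure D5:**
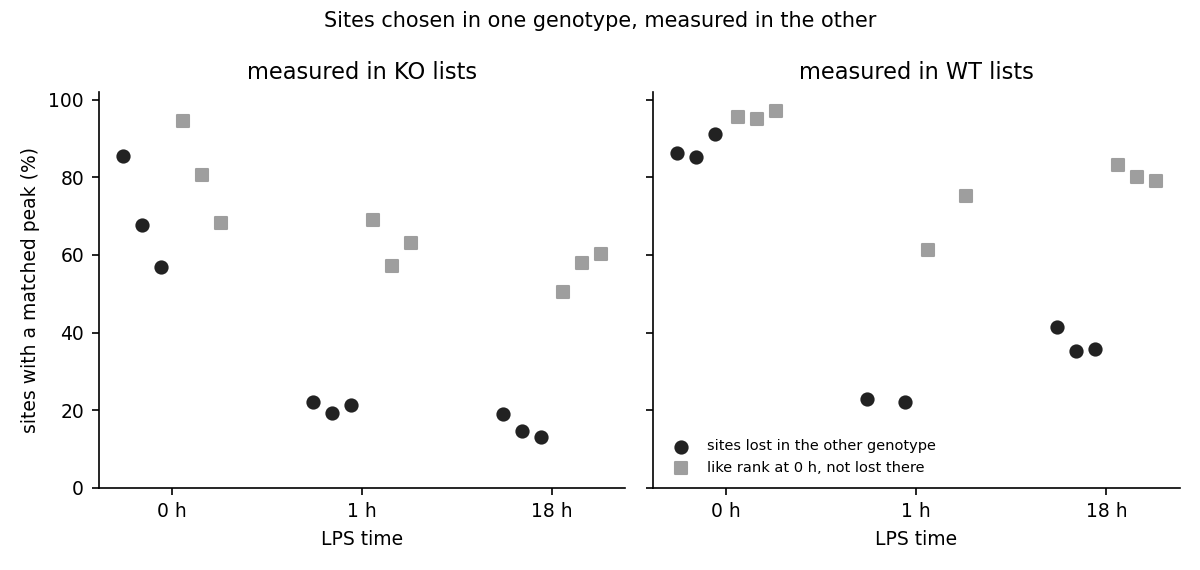
Percent of sites with a matched peak in each list of the genotype that did not choose them, at 0, 1 and 18 h of LPS. Circles are sites lost in the other genotype (1132 left, 1183 right) and squares are like-rank sites not lost there. Circles under LPS lie between 13.2% and 41.4%, below all circles at 0 h.

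The site lists chosen in each genotype shared 351 sites, 31.0% of the BMDM-WT list and 29.7% of the BMDM-Nur77-KO list, of which 300 were members. Motif shares of the chosen sites that were not members lay between those of members and like-rank sites for MEF2. They were 3.93% (2.66 to 5.79) of 610 sites chosen in BMDM-WT and 1.87% (1.12 to 3.11) of 750 chosen in BMDM-Nur77-KO. The composite element was in 2.79% (1.75 to 4.42) and 2.40% (1.52 to 3.76), and AP-1 in 9.67% (7.57 to 12.3) and 7.07% (5.44 to 9.13).

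The members were chosen over the 6 lists at 0 h of both genotypes together, so their values by genotype at that time are a description, with no test. The share with a matched peak was 87.3% ± 9.54 (SD, n = 3) in BMDM-Nur77-KO and 96.1% ± 1.65 (n = 3) in BMDM-WT, a difference of -8.79 percentage points. It was -30.1 points with all deposited peaks, -27.5 where a peak had to cover at least 0.5 of a site and -14.0 without BMDM-Nur77-KO replicate 1. The deepest BMDM-Nur77-KO list, at 7.65 background reads per kb, had 96.6%, and the lists at 1.53 and 0.720 had 88.0% and 77.5%. The part of depth in this difference was not tested. The median rank of members was 19468, 19982 and 19791 in BMDM-Nur77-KO and 19936, 19534 and 19429 in BMDM-WT.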

How the data were processed

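Per the labels and the study's methods, ATAC-seq reads were trimmed (cutadapt 2.6), mapped to mm10 and processed by the authors with snakeATAC, and peaks were called in each sample. DiffBind 3.0.15 is also named in the submitters' processing notes. The names of the deposited peaks give a mapping quality of 20, removal of mitochondrial reads and duplicates, and a q-value threshold of 0.001. Each deposited list gives an integer score, a fold (the ratio of summit reads to background) and the p-value and q-value on the −log10 scale. The deposited score was not used here. Counts of reads at sites were not used here, and the DiffBind comparison was therefore not repeated.

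The 1001519 entries were collapsed to 808470 intervals. They were ranked within each list by −log10 p-value, ties broken by fold, chromosome and start, and up to 13.9% of a matched list was tied at the last rank. The background level of a list was taken as that at which the fold returns whole reads. Each p-value was then compared with the one expected from those reads. Both held for 100% of entries in each list (tolerance of 0.02 reads), where entries of extreme p-value were counted without this check. Sequence came from GRCm38.p6 and genes from GENCODE M21. Groups were taken from the labels. Shares over sites carry 95% Wilson intervals, which cover counting error only. Groups of lists were compared by two-sided exact permutation. A planned test of the members between genotypes at 0 h is left out, because the rule used those lists. The code was tested on simulated lists (Python 3.11.15, numpy 2.4.6, pandas 2.3.3, scipy 1.17.1, statsmodels 0.14.6).

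Named members were the 12 of best mean rank at 0 h, those in all 6 lists at 0 h without any deposited peak under LPS, those within 100 kb of a TSS of a listed transcription factor or receptor gene, and those of genes with at least 3 members, 41 in all. The members and gene lists were chosen with earlier results of these data known. The motif letters of MEF2, PU.1-IRF, NF-kB and other long elements are given by name only. Alternatives were other numbers of peaks, overlaps, presence limits, windows and q-value limits, each list left out in turn, and permutation within replicate number.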

Additional observations from a re-analysis of the deposited data

How the results depend on the processing

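The number of members was 272 with the best 10000 peaks of each list, 1199 with all deposited peaks, 142 with presence in every 0 h list and no LPS list required, and 1173 without the 3 lists under 1 background read per kb, an alternative chosen after the data were seen. Leaving out 1 list at a time gave 749 to 956. In the order of the first 2 of these settings, the promoter share was 34.6% and 7.76%. It was 17.4% where a peak had to cover at least 0.5 of the site and 4.93% under the strict limits. The AP-1 share was 13.0% under that coverage limit and 4.44% within 50 bp of the summit (12.2% at sites of like rank). The PU.1 share was 9.26% with all deposited peaks, 16.2% under the strict limits and 7.02% within 50 bp (5.41% at sites of like rank). The MEF2 share, whose alternatives were added after the data were seen, as were those of the composite element, was 3.68% with 10000 peaks, 4.0% with all deposited peaks, 9.15% under the strict limits and 3.58% within 50 bp (0.681% at sites of like rank). The composite share was 2.25% with all deposited peaks and 3.11% under that coverage limit. Leaving out 1 list gave promoter shares of 11.7% to 13.1%, AP-1 6.67% to 8.08%, PU.1 11.2% to 12.3%, MEF2 5.15% to 5.94% and the composite 3.92% to 4.74%.

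The difference between LPS and 0 h at sites chosen in BMDM-WT was -23.1 points with all deposited peaks and -33.7 under that coverage limit, and neither passed. At sites chosen in BMDM-Nur77-KO it was -48.4 and -49.5, which did not pass either, and -54.0 under the replicate block, where 12 arrangements cannot reach the threshold. Leaving out 1 list gave -58.4 to -44.1 and -58.5 to -48.2, all of which passed. Same-numbered lists of a genotype correlated by at most 0.0655 in their deviations from group means. With so few lists per group, these values cannot tell whether the numbers pair the lists. The difference between genotypes in median rank at 0 h was 114 ranks. It turned to -7772 with all deposited peaks and to -169 under the strict limits. Under the coverage limit it was 2404, and with 1 list left out it ranged from -13.2 (without BMDM-WT replicate 3 at 0 h) to 438. A member without a peak takes the last rank of its list. With all deposited peaks, the 0 h lists end at rank 27429 to 70397 in BMDM-Nur77-KO and at 63097 to 71456 in BMDM-WT. The genotype difference in share at 0 h, which the strict limits set to 0, kept its sign in the other alternatives, at -30.1 points with all deposited peaks, -27.5 under the coverage limit and -14.0 to -8.00 with 1 list left out. The cause of these changes was not tested. Depth limits absence: a missing peak in a shallow list says only that few reads were there.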

Other observations

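Member windows lay in repeat-masked sequence over more than 0.5 of their length in 6.16% of cases, against 3.28% of sites of like rank and 3.43% of all consensus sites. CTCF elements were in 3.01% of members (95% Wilson interval 1.98 to 4.56) and in 4.84% (4.30 to 5.44) of sites of like rank, while 8.69% (6.70 to 11.2) of the sites chosen in BMDM-WT that were not members held one and 4.27% (3.04 to 5.96) of those chosen in BMDM-Nur77-KO. MARE letters (TGCTGAC), bound by large MAF factors, were in 7.59% of members and 6.05% of like-rank sites, and the E-box of MITF and TFE factors (TCACGTG) in 1.86% and 2.91%. GC-box letters (GGGCGGG) were in 7.16% and 9.97%, and the ISRE in 0.287% and 0.994%. Members with and without MEF2 letters had median ratios of 0.568 and 0.598 in relative reads between 18 h and 0 h of BMDM-WT.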
